A study of Mus musculus with 383 samples.

Results

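Calretinin, the calcium-binding protein encoded by Calb2, was used to divide the vagal motor nuclei that had no read for Cartpt, the precursor of the CART peptides. Of the 383 sequenced nuclei, 295 had at least 500000 reads and at least 1000 genes with a read, 294 of these also had a read for the cholinergic genes Chat or Slc5a7, and 265 also had a read for Tbx20, which visceral motor neurons use as a transcription factor. Cartpt was at 0 reads in 162 of the 265. Of these, 43 nuclei had at least 5 reads for Calb2 and are called Calb2 nuclei below. They were compared with the 108 nuclei at 0 Calb2 reads, and the 11 nuclei with 1 to 4 Calb2 reads were kept apart.

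The dorsal motor nucleus of the vagus, in the caudal brainstem, holds the parasympathetic preganglionic neurons whose axons run in the vagus nerve to ganglia in the wall of the stomach, the gut and other organs. These neurons use acetylcholine, and many also make peptides or nitric oxide. Calretinin binds calcium through EF hands and buffers it in the cytoplasm, and it is widely used to mark subsets of neurons. The title of the series concerns how distinct vagal neurons reach the gut, and the comparison asks which genes accompany Calb2 in motor nuclei without Cartpt.

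All nuclei came from male Chat-IRES-Cre mice of strain C57BL/6, in which Cre is made wherever Chat is active. At 10 weeks of age the mice had received 100 nL of AAV9-DIO-H2b-mCherry, a virus that puts red mCherry on the nuclei of Cre-expressing cells, and tissue was taken 16 days later, at 12 weeks. The labels place the dissected tissue in the vagal motor nucleus, but the protocol also speaks of sections with the SCN, and the labels leave this unclear. The tissue was pooled, the labels tie no nucleus to an animal, and all groups below share genotype, virus and age. Nuclei therefore do not stand for replicate animals, no test was run, and differences are described by their size. RNA was copied by Smart-seq2 with 22 cycles of amplification and without molecular identifiers, so reads are not independent molecules.

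Depth was similar between the groups. The Calb2 nuclei had 615703 to 4699420 reads, median 1442145, and the nuclei at 0 had 532391 to 4545281, median 1507567. After thinning to 500000 reads, the median nucleus had 10011 genes with a read against 9846. Snap25, which serves vesicle release in neurons, was found in 100% of both groups. Summed markers of oligodendrocytes reached a median of 63.7 counts per 1000000 reads (CPM) in Calb2 nuclei, with a highest value of 268, against 37.7 and 2232. Summed markers of astrocytes had a median of 21.4 CPM, with a highest value of 150, against 14.3 and 1910. Of the other lists for glial, vascular, ependymal, inhibitory and somatic motor cells, the markers Olig2, Tmem119, Cldn5, Ccdc153, Slc32a1 and Mnx1 were at 0 in the Calb2 nuclei. Other members of the same lists were found there, Cspg4 in 16.3% against 8.33% of the nuclei at 0, Cx3cr1 in 30.2% against 29.6%, Flt1 in 44.2% against 46.3%, Dnah12 in 58.1% against 55.6%, Gad2 in 25.6% against 20.4% and Lhx4 in 16.3% against 21.3%. The median share of reads on mitochondrial genes was 0.0802% against 0.0536%, and that on cytosolic ribosomal protein genes was 0.198% against 0.174%. The part of these differences in the results below was not tested. An alternative given at the end leaves out nuclei with high glial and vascular markers.

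Motor neuron genes are given as a description and do not test the label of the nuclei, because the rule used some of them. Chat, which makes acetylcholine, had 33 to 1164 reads in the Calb2 nuclei, median 344, and 0 to 1906 in the nuclei at 0, median 270.5. At 500000 reads it was found in 100% of 43 against 98.1% of 108. The rule requires a read for Chat or Slc5a7 and a read for Tbx20, so their shares carry no information. Slc18a3, the vesicular acetylcholine transporter, was not used by the rule and was found in 97.7% against 93.5%. It lies within the Chat locus, where reads of overlapping genes may be shared. Summed markers of visceral motor neurons, a list that includes Tbx20, had a median of 295 CPM in the Calb2 nuclei against 321. Their lowest values were 0.708 and 0.535 CPM. Summed markers of somatic motor neurons had a median of 0 CPM in both groups, with a highest value of 710 in the Calb2 nuclei against 264.

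Calb2 itself, which chose the nuclei, is given as a description. The gene lies on the minus strand at chr8:110137502-110168210 (GRCm38, GENCODE M21). The Calb2 nuclei had 9 to 450 reads for it, median 42, and the 5 nuclei with the most held 39.3% of the 3279 reads. Summed over the group, Calb2 made up 47.9 RPM, which is reads of the gene per 1000000 reads of the group (exact Poisson 95% interval 46.3 to 49.6, counting error only). The nuclei just inside the limit had 9, 10, 11, 11 and 12 reads. Just outside it, 2 nuclei had 3 reads, 2 had 2 and 7 had 1, so none lay between 3 and 9 reads and the limit of 5 divided no nuclei from close neighbours. Calb2 nuclei were 26.5% (19.9 to 34.0) of the 162 nuclei without Cartpt reads. Among the 103 nuclei with a Cartpt read they were 43.7% (33.9 to 53.8), with 45 such nuclei.

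**Figure D1:**
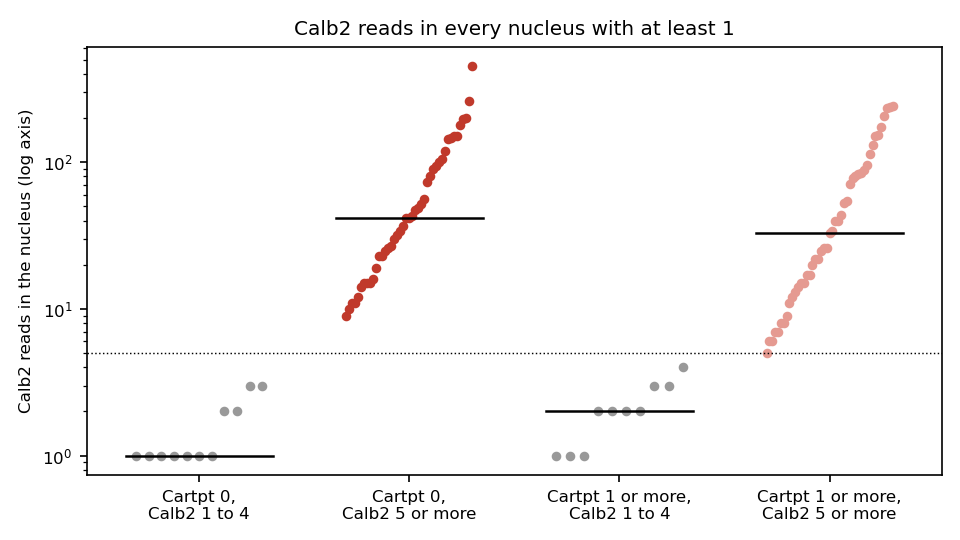
Calb2 reads in each nucleus with at least 1 read, on a log axis, in nuclei without (left pair) and with (right pair) Cartpt reads; bars are medians and the dotted line is the limit of 5 reads. The 43 nuclei without Cartpt reads sit between 9 and 450, with none between 3 and 9.

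Several receptors for peptides known in feeding and stress were among the genes that accompanied Calb2. Mc4r, Npy2r and Crhr1 were found in more Calb2 nuclei than nuclei at 0, and Qrfpr and Lepr in fewer. A gene was called by share where the percentage of nuclei with a read, at 500000 reads each, differed by at least 25 points and the exact Clopper-Pearson 95% intervals did not overlap. Of 17187 genes found in at least 10% of these nuclei, 58 were called higher (0.337%) and 25 lower (0.145%). Among the called genes, 4 of the higher and 5 of the lower had predicted names and are counted only. Without nucleus numbers 1 to 96, 14 genes were called lower. Under 23 alternative settings, Mc4r, Npy2r, Pmfbp1 and Qrfpr were the only genes named by share that were called every time, and the others named lost their call at least once. Settings that changed only levels, loosened the limits or admitted more genes could not remove a share call, yet they count among the 23. Intervals take the nucleus as the unit, as if nuclei were independent. They cover the sampling of nuclei only and no variation between animals.

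Mc4r, the melanocortin receptor through which alpha-MSH and AgRP act on feeding and autonomic output, had the largest difference. It had 0 to 492 reads in the Calb2 nuclei, median 28, and 0 to 253 in the nuclei at 0, median 0. The ranges overlapped, and 33 of 43 nuclei (76.7%, 61.4 to 88.2) had a read at 500000 against 25 of 108 (23.1%, 15.6 to 32.2). Summed over each group, Mc4r made up 56.9 RPM against 7.38 RPM. Among the 11 nuclei with 1 to 4 Calb2 reads, 2 had Mc4r.

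Npy2r, which binds neuropeptide Y and the gut hormone peptide YY, lies on the minus strand at chr3:82538383-82548084. It had 0 to 662 reads in the Calb2 nuclei, median 123, and 0 to 1114 in the nuclei at 0, median 0. The nucleus with the most Npy2r reads was thus one without Calb2, while a read at 500000 was found in 76.7% (61.4 to 88.2) against 35.2% (26.2 to 45.0). Summed over each group, Npy2r made up 107 RPM against 45.8 RPM.

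Crhr1, a receptor for corticotropin-releasing hormone, lies on the plus strand at chr11:104132855-104175523. It had 0 to 270 reads in the Calb2 nuclei, median 29, and 0 to 88 in the nuclei at 0, median 0. A read was found in 67.4% (51.5 to 80.9) against 33.3% (24.6 to 43.0). Without nucleus numbers 193 to 288 the difference for Crhr1 was 22.8 points, under the limit.

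Qrfpr, the receptor for the peptide QRFP, was the gene lower by the most. It had 0 to 186 reads in the Calb2 nuclei, median 0, and 0 to 2114 in the nuclei at 0, median 6.5. It was found in 6 of 43 nuclei (14.0%, 5.30 to 27.9) against 59 of 108 (54.6%, 44.8 to 64.2). Predicted genes overlap it on both strands. Lepr, the leptin receptor, was found in 39.5% (25.0 to 55.6) against 65.7% (56.0 to 74.6), with a highest value of 213 reads against 605. The Lepr difference was -23.9, -24.7 and -23.2 points without nucleus numbers 1 to 96, 97 to 192 and 289 to 384, each under the limit.

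The bases just upstream of the annotated starts of Npy2r and Crhr1, which go with Calb2, and of St8sia4, which goes against it, are shown. Where transcripts start in these nuclei was not measured. Each stretch is the 250 bases before the RefSeq start (GRCm38.p6), 5′ to 3′ on the strand of the gene, with CG pairs in capitals. The positions are chr3:82548086-82548335 on the minus strand, chr11:104132531-104132780 on the plus strand and chr1:95667595-95667844 on the minus strand.
Npy2r: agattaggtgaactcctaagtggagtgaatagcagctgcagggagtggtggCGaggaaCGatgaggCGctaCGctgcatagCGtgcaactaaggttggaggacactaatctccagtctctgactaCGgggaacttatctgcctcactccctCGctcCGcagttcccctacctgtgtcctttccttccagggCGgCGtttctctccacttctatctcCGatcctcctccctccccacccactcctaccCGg
Crhr1: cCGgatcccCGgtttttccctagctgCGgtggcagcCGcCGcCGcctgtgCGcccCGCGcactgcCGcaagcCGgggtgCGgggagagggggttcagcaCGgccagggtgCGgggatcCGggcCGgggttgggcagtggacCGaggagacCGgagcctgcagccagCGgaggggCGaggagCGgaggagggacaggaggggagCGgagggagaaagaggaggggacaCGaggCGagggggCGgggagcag
St8sia4: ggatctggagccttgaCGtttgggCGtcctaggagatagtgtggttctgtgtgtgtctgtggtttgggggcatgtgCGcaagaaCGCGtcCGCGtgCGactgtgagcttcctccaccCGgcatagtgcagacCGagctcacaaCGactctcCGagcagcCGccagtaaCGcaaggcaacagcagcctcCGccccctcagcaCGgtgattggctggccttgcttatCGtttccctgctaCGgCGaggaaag

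The 3 stretches differed in base composition. That of Npy2r was 56.8% G or C with 12 CG pairs, that of Crhr1 was 74.8% with 25, and that of St8sia4 was 60.4% with 19. RefSeq promoters were at hand for 9 of the 15 genes higher by the most and 12 of the 15 lower by the most. Their median G and C content, in the first window of each gene, was 69.6% and 59.6%, against 52.4% over all 32851 promoters in the table. Spelled out on both strands, TATAAA occurs in 12.4% of all promoters, ATTGAT and ATCGAT, cores bound by Onecut factors, in 6.72% and 0.728%, and ATGCAAAT, the octamer bound by POU factors, in 1.60%. By gene, the shares are 14.3%, 7.72%, 0.836% and 1.81% in the same order. None of these motifs occurs in the windows of the 9 higher genes, and Shroom2 alone of the 12 lower genes holds TATAAA and ATTGAT. Shroom2 holds them in windows other than its first. So few genes are too few to compare with those shares.

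**Figure D2:**
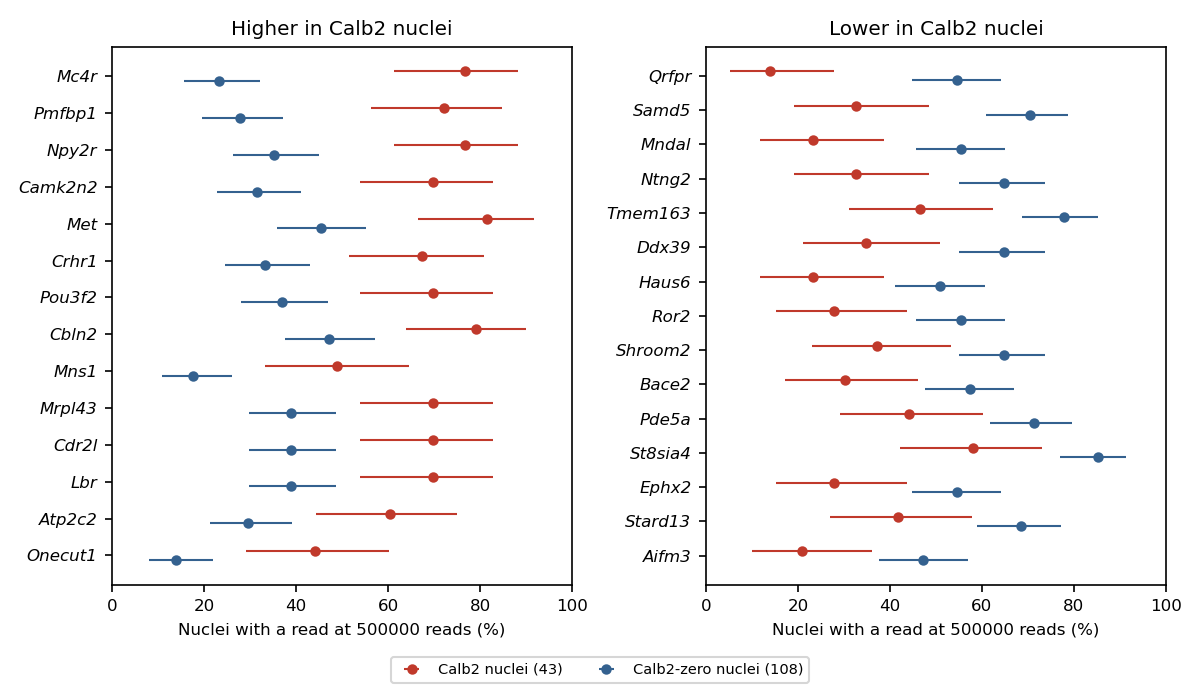
Percentage of nuclei with a read at 500000 reads for 14 of the 15 genes higher (left) and the 15 lower (right) by the most in Calb2 nuclei, leaving out predicted genes; points are shares and lines are exact 95% intervals. Mc4r stands at 76.7% against 23.1% and Qrfpr at 14.0% against 54.6%.

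Other higher genes covered a growth factor receptor, transcription factors and a synaptic organiser. Met, the receptor for hepatocyte growth factor, had 0 to 632 reads in the Calb2 nuclei, median 111, and 0 to 1153 in the nuclei at 0, median 1. It was found in 81.4% (66.6 to 91.6) against 45.4% (35.8 to 55.2). Pou3f2, a POU transcription factor of neurons, was found in 69.8% (53.9 to 82.8) against 37.0% (27.9 to 46.9), with medians of 34 and 0 reads. Cbln2, a secreted protein that links synaptic partners through neurexins, was found in 79.1% (64.0 to 90.0) against 47.2% (37.5 to 57.1).

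Onecut1, a homeodomain transcription factor of developing motor neurons, was found in 44.2% (29.1 to 60.1) of Calb2 nuclei against 13.9% (7.99 to 21.9). The Onecut1 difference was 23.6 points without nucleus numbers 1 to 96 and 22.9 in a second random draw of reads, each under the limit. Hoxb5, which helps set position along the body axis, had 0 to 355 reads, median 56, against 0 to 225, median 10.5. It was found in 83.7% (69.3 to 93.2) against 56.5% (46.6 to 66.0), and the difference was 21.9 points, under the limit, without nucleus numbers 97 to 192. Hoxb5os overlaps Hoxb5 on the other strand. Camk2n2, an inhibitor of the kinase CaMKII, was found in 69.8% against 31.5%, and Lbr, the lamin B receptor of the nuclear envelope, in 69.8% against 38.9%. Also among the 15 were Mrpl43, Cdr2l, Mns1, Atp2c2 and Pmfbp1.

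Pmfbp1, known from sperm, lies on the same chromosome as Calb2, at chr8:109494027-109542640 and 594861 bases from it. It had 0 to 471 reads in the Calb2 nuclei, median 40, and 0 to 478 in the nuclei at 0, median 0. It was found in 72.1% (56.3 to 84.7) against 27.8% (19.6 to 37.2). Of 31 genes compared within 1000000 bases of Calb2 on each side, Pmfbp1 was the only 1 called. The other genes differed by -10.4 to 16.6 points, with a median of 0.0323, and the 12 genes compared that lie between Pmfbp1 and Calb2 by -5.99 to 12.7.

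The lower genes included enzymes and adhesion proteins. St8sia4, which adds polysialic acid to the adhesion molecule NCAM, had 0 to 456 reads in the Calb2 nuclei, median 14, and 0 to 709 in the nuclei at 0, median 72.5. It was found in 58.1% (42.1 to 73.0) against 85.2% (77.1 to 91.3). The St8sia4 difference was -17.3 points in a second random draw of reads and -16.5 without nucleus numbers 97 to 192, each under the limit. Pde5a, which breaks down cyclic GMP downstream of nitric oxide, was found in 44.2% (29.1 to 60.1) against 71.3% (61.8 to 79.6), with medians of 1 and 56 reads. Without nucleus numbers 97 to 192 the Pde5a difference was -7.96 points. Ntng2, a membrane-anchored netrin relative, was found in 32.6% (19.1 to 48.5) against 64.8% (55.0 to 73.8).

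Ror2, a receptor for Wnt ligands, was found in 27.9% of Calb2 nuclei against 55.6%, Tmem163, a zinc transporter, in 46.5% against 77.8%, and Bace2, a protease related to beta-secretase, in 30.2% against 57.4%. Of 23 alternative settings, Ror2 stayed past the limit in 13, down to -6.32 points whatever the Cartpt reads, and Bace2 in 12, with -22.5 points in a second random draw. Both counts include the settings that could not remove a share call. Samd5 was found in 32.6% against 70.4%, and its call was lost only whatever the Cartpt reads, at -22.3 points. The other lower genes of the 15 were Mndal, Ddx39, Haus6, Shroom2, Ephx2, Stard13 and Aifm3, with shares of 20.9% to 41.9% in Calb2 nuclei. The plot of shares shows that no gene plotted was confined to 1 group.

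In nuclei without Cartpt reads, the number of these genes held by a nucleus follows from the way the genes were chosen. It does not show that they go together in single nuclei. A Calb2 nucleus held 4 to 14 of the 15 higher genes, median 11, and a nucleus at 0 held 1 to 10, median 5. At least 8 were held by 36 of 43 Calb2 nuclei (83.7%) and by 13 of 108 nuclei at 0 (12.0%). In nuclei with Cartpt reads, which did not choose the genes, the medians were 9 and 7, and at least 8 were held by 28 of 45 nuclei with Calb2 (62.2%) and 19 of 48 without (39.6%). Mc4r and Npy2r were both found in 28 of 43 Calb2 nuclei (65.1%, 49.1 to 79.0) and in 9 of 108 nuclei at 0 (8.33%, 3.88 to 15.2). Within the Calb2 nuclei, Mc4r was found in 84.8% of the 33 with Npy2r and in 50% of the 10 without. Within the nuclei at 0 these shares were 23.7% of 38 and 22.9% of 70. Npy2r and Crhr1 were both found in 62.8% (46.7 to 77.0) of Calb2 nuclei against 13.9% (7.99 to 21.9).

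**Figure D3:**
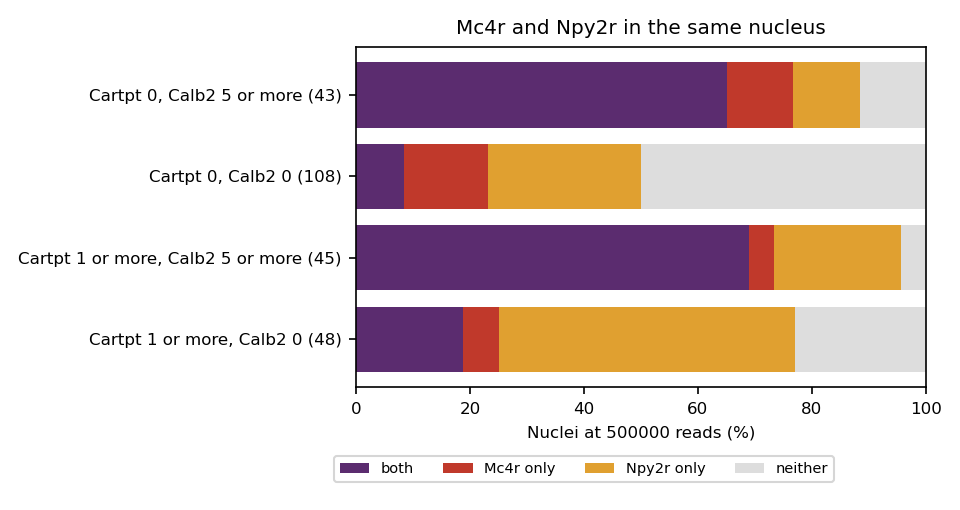
Percentage of nuclei at 500000 reads with both Mc4r and Npy2r, 1 of them or neither, in nuclei without and with Cartpt reads and with or without Calb2; the number of nuclei stands in each label. Both receptors were found in 65.1% of the Calb2 nuclei without Cartpt and in 8.33% of the nuclei at 0.

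Abundant genes were compared by level, as the mean over nuclei of log2(CPM + 1), which understates differences of genes near 0. Of 5935 genes found in at least 75% of the nuclei, 136 differed by at least 1 upward in Calb2 nuclei (2.29%) and 59 downward (0.994%). The median of all 5935 differences was 0.14, and relative to that median the counts were 84 upward and 93 downward. With log2(CPM + 10) they were 33 and 14, and without nucleus numbers 193 to 288 they were 265 and 96. Levels are compared for 1 gene between groups and never between genes. The named genes below include 8 in each direction with the largest differences, and each of these 16 also passed the limit relative to the median and with log2(CPM + 10).

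Among the levels higher in Calb2 nuclei, Ghr, the growth hormone receptor, had 13 to 4502 reads in the Calb2 nuclei, median 668, and 0 to 7151 in the nuclei at 0, median 188. Its level was 8.41 ± 1.68 (SD over 43 nuclei) against 6.31 ± 3.15 (SD over 108 nuclei), a difference of 2.11. Fbn2, a fibrillin of the extracellular matrix, had 0 to 2940 reads, median 309, against 0 to 3052, median 56.5. The level of Fbn2 was 7.53 ± 1.97 against 5.00 ± 3.27, the largest of the named differences at 2.53. Adamts2, which trims procollagen, differed by 2.16, from 9 to 1943 reads in the Calb2 nuclei against 0 to 3081.

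Sorcs3, a sorting receptor of neurons, stood at 9.39 ± 2.36 against 7.11 ± 3.65, and Synpr, a synaptic vesicle protein, at 7.89 ± 2.41 against 5.65 ± 3.19. Necab1, a calcium-binding protein with an EF hand, stood at 6.09 ± 1.90 against 4.27 ± 2.94. Tmem132d and Plscr4, a member of the scramblase family, differed by 2.13 and 1.86. For each of these genes the ranges of the groups overlapped, and the spread was wider in the nuclei at 0, some of which lay among the Calb2 nuclei.

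The levels lower in Calb2 nuclei included a calcium release channel and a netrin receptor. Ryr3, a ryanodine receptor that releases calcium from internal stores, had 0 to 2759 reads in the Calb2 nuclei, median 102, and 3 to 6161 in the nuclei at 0, median 793.5. Its level was 6.16 ± 2.83 against 8.55 ± 2.02, a difference of -2.38. Unc5d, a netrin receptor of the repulsive kind, had 2 to 4174 reads, median 528, against 1 to 26522, median 2267. The level of Unc5d was 7.97 ± 2.44 against 9.88 ± 2.55. Cdh7, a cadherin, stood at 2.69 ± 2.41 against 4.96 ± 2.68, and Trpm3, a cation channel opened by heat and pregnenolone sulfate, at 5.13 ± 2.57 against 7.05 ± 2.31. Nrip1 and Runx1t1, transcriptional cofactors, differed by -1.93 and -1.82, and Brinp3 by -1.97.

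**Figure D4:**
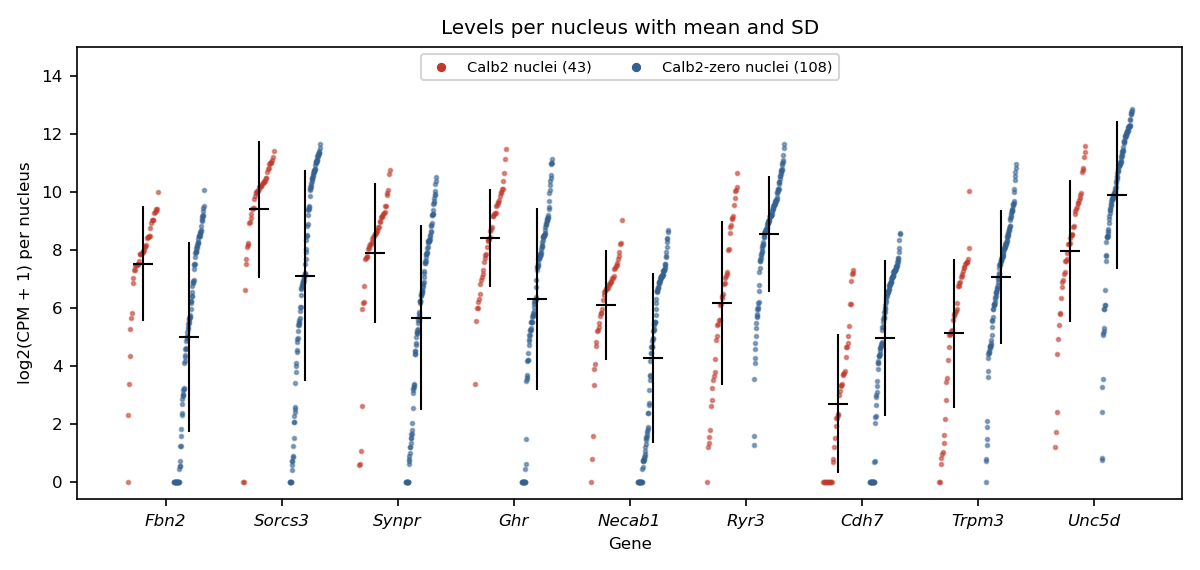
Level of 5 genes higher and 4 genes lower in Calb2 nuclei, as log2(CPM + 1) in each nucleus, with the mean as a tick and the SD as a line. The Fbn2 mean is 7.53 against 5.00 and the Ryr3 mean 6.16 against 8.55, and the points of the groups overlap for every gene shown.

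Listed genes were called in both directions. Of 616 distinct genes in 15 lists, 498 could be compared by share, with 6 called higher (1.2%, against 0.337% of all genes) and 4 lower (0.803% against 0.145%). By level 230 could be compared, with 21 higher (9.13% against 2.29%) and 13 lower (5.65% against 0.994%). The lists were chosen with earlier results of these data known, so their shares of calls are not independent of the data. Relative to the median level difference, 18 stayed higher and 13 lower. By share, the lists' medians lay between 0 and 6.78 points, against 1.12 for all genes. The list of peptide and hormone receptors had 3 higher (Crhr1, Mc4r and Npy2r) and 2 lower (Lepr and Qrfpr) of 48 compared by share, with a median of 1.27 points. Sstr5, a somatostatin receptor that is not in the list and was chosen after its values were seen, was also called higher, at 60.5% (44.4 to 75.0) against 31.5% (22.9 to 41.1). Of its 6 members compared by level, Ghr was higher.

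No neuropeptide precursor was called by share, where calls were rare among all genes. Of 24 precursors compared, 0 were called, against 0.337% higher and 0.145% lower of all genes. At those shares a list this short may well hold none. Their median difference was 0.226 points, and 12 of the 24 were above 0. The precursor gene Nppb, chosen after its values were seen, was found in 11.6% of Calb2 nuclei against 30.6%, a difference of -18.9 points. Cck was found in 2.33% of Calb2 nuclei (0.0589 to 12.3) against 9.26% (4.53 to 16.4), Pdyn, the dynorphin precursor, in 6.98% against 21.3%, and Grp in 6.98% against 3.70%. Adcyap1, the precursor of PACAP, was found in 88.4% against 88.9%. Gal, the precursor of galanin, which is also made by injured neurons, had 0 to 1437 reads in the Calb2 nuclei, median 496, and 0 to 980 in the nuclei at 0, median 338. Its level differed by 1.14, but by 0.88 with log2(CPM + 10). Cckar, a receptor for cholecystokinin, was found in 44.2% against 40.7%.

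None of the 35 listed calcium-binding genes compared by share was called, where 0.337% of all genes were called higher and 0.145% lower. Cib2 and Efcab5, EF-hand genes outside that list and chosen after their values were seen, were called higher, at 76.7% against 50.9% and 60.5% against 34.3%. Calb1, which encodes calbindin, was found in 23.3% of Calb2 nuclei (11.8 to 38.6) against 17.6% (10.9 to 26.1). By level, 2 of 22 were higher, Kcnip4, which binds potassium channels, and Necab1, where 2.29% of all genes were higher. Kcnip4 stood at 13.16 ± 1.27 against 11.55 ± 2.24. Of the cholinergic genes, Chrna3, the nicotinic subunit of autonomic neurons, differed in level by 1.55 and Slc10a4, a vesicle protein of cholinergic neurons, by 1.60. Nos1, the neuronal nitric oxide synthase, was found in 93.0% against 91.7%. Slc18a2, the vesicular monoamine transporter, stood at 6.88 ± 2.92 against 5.61 ± 2.78, and Th, the first enzyme of catecholamine synthesis, was found in 60.5% (44.4 to 75.0) against 43.5% (34.0 to 53.4). Th was chosen after its values were seen, and it was not called.

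Ion channels were not called by share in any of 80 cases, where 0.337% of all genes were called higher and 0.145% lower. By level, 2 of 49 were higher, Kcnc4 and Trpc7, and 4 were lower, among them Kcnh1, Kcnh7 and Trpm3. Of all genes compared by level, 2.29% were higher and 0.994% lower. Kcnh7, a potassium channel of the ERG kind, stood at 7.91 ± 2.14 against 9.17 ± 1.58. Among receptors for GABA and glutamate, Gabrg3 and Grin2a were higher by level, of 31, and Gabrg3 was under the limit relative to the median, at 0.92. Pde1a, a phosphodiesterase driven by calmodulin, differed by 1.51. Of the listed transcription factors, Hoxb5 and Onecut1 were called by share, and Pbx3 was lower by level, at 4.64 ± 2.67 against 5.81 ± 2.54, a difference that was 0.0218 whatever the Cartpt reads.

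Axon guidance genes went both ways, with 6 higher and 4 lower by level of 32, where all genes had 2.29% and 0.994%. Cntn4, Dcc, Epha6, Nrp2, Ret and Slit2 were higher and Epha5, Robo1, Robo2 and Unc5d lower. Dcc, the attractive netrin receptor, had 32 to 24392 reads in the Calb2 nuclei, median 3334, and 12 to 25837 in the nuclei at 0, median 1588. The level of Dcc was 10.98 ± 1.63 against 9.67 ± 2.02, while that of Unc5d differed the other way. Robo2, a receptor for Slit proteins, stood at 5.51 ± 2.62 against 7.02 ± 2.62, and Slit2, a Slit protein, at 9.36 ± 0.69 against 8.34 ± 2.25. Ret and Slit2 fell under the limit relative to the median, at 0.89 each.

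Adhesion genes were divided likewise. Cdh11, a cadherin, and Tenm3, a teneurin of synaptic matching, were higher in level by 1.63 and 1.75. Cdh7, Cntnap4, Pcdh9 and Pcdh19 were lower by level, of 33. Of all genes compared by level, 2.29% were higher and 0.994% lower. Gm19744 lies within Tenm3 on the other strand, and the use of strand in counting is not given. Immediate early genes had 0 of 11 called by share, with a median of 6.78 points, and interferon response genes had 0 of 15, with Ifi27 higher in level by 1.21. Of all genes, 0.337% were called higher by share and 0.145% lower. Cytosolic ribosomal protein genes were found in more Calb2 nuclei for 65 of 88, against 9837 of 17187 for all genes, with a median of 5.04 points.

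The nuclei with Cartpt reads were not used to rank the genes and show where the contrast reached further. The lists and always-named genes were chosen with earlier results of these data known. There, 45 nuclei with at least 5 Calb2 reads were set against 48 at 0, and of 17114 genes 27 were called higher (0.158%) and 25 lower (0.146%). Mc4r was found in 73.3% (58.1 to 85.4) against 25.0% (13.6 to 39.6), close to the shares without Cartpt. Pmfbp1 was found in 57.8% against 25.0% and was called, as was the predicted gene Gm19744. These 3 genes were 5.17% of the higher list without Cartpt and 11.1% of that with it. St8sia4 was the only gene lower in both, at 60.0% against 87.5%, which was 4% of each list, and its call without Cartpt was lost in the second random draw. No gene was called in opposite directions.

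Npy2r was common in both Cartpt-positive groups, at 91.1% against 70.8%, so Calb2 divided it less than 25 points there. Met was found in 75.6% against 52.1% and Cbln2 in 84.4% against 64.6%. Crhr1 went the other way, at 40.0% against 50.0%, as did Camk2n2, at 48.9% against 62.5%, Mrpl43, Cdr2l and Atp2c2, the last at 22.2% against 25.0%. Ror2 was found in 60.0% against 39.6%, where it had been lower without Cartpt. Lepr was at 62.2% against 62.5%. Whether the contrast differs between Cartpt groups was not tested for any of these genes.

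Of the 15 genes higher by the most, 10 kept their direction in the nuclei with Cartpt reads, with a median of 12.4 points and a range of -19.7 to 48.3. Of the 15 lower by the most, 14 kept it, with a median of -6.94 points. Over all called genes these counts were 38 of 58 and 23 of 25. Of all 17187 genes compared, 7321 had a higher share with Calb2 in the nuclei with Cartpt reads. That number can be set beside the higher genes only. By level, 7 of the 8 named as highest and 8 of the 8 named as lowest kept their direction, and Plscr4, at -0.16, did not. Over all genes past the level limit the counts were 83 of 136, of which 23 passed the limit again, and 45 of 59, of which 6 did. Fbn2 differed by 2.20 there, Ghr by 2.00, Sorcs3 by 2.02 and Unc5d by -3.06. Robo1 and Pbx3, lower without Cartpt, differed by 1.01 and 0.77. Mc4r and Npy2r were found together in 31 of 45 Calb2 nuclei with Cartpt reads (68.9%, 53.4 to 81.8) and in 9 of 48 without Calb2 (18.8%, 8.95 to 32.6).

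**Figure D5:**
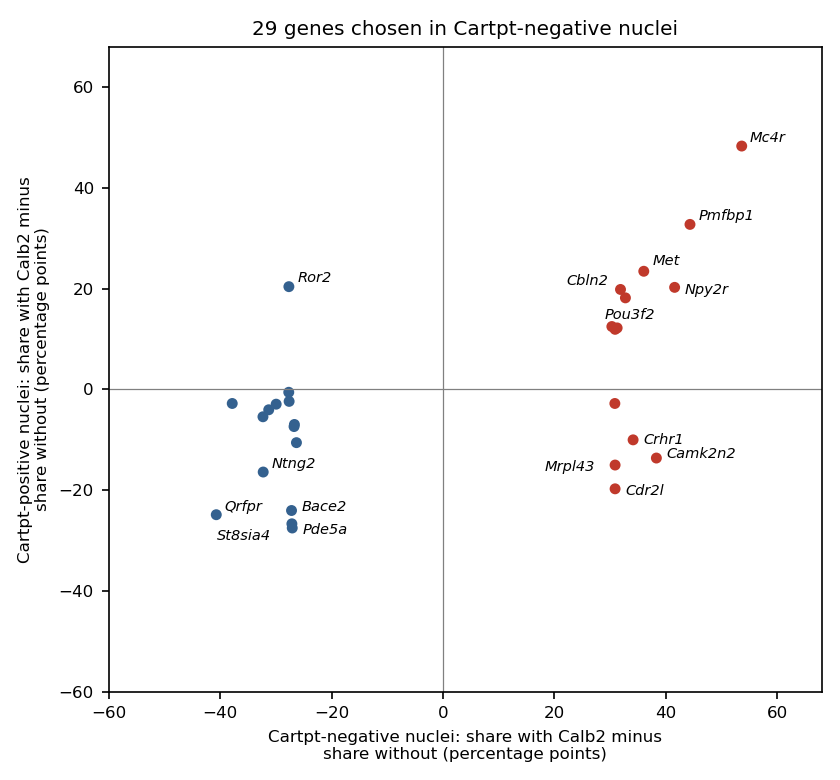
Difference in share between nuclei with and without Calb2, in percentage points, for 29 of the 30 genes chosen in nuclei without Cartpt reads (horizontal axis) and for the same genes in nuclei with Cartpt reads (vertical axis). Mc4r and Pmfbp1 lie highest, while Crhr1, Camk2n2, Mrpl43, Cdr2l and Atp2c2 lie below 0 on the vertical axis and Ror2 above it.

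The 11 nuclei with 1 to 4 Calb2 reads, also unused in ranking genes, held a median of 4 of the 15 higher genes and 10 of the 15 lower genes. The nuclei at 0 had medians of 5 and 9, and the Calb2 nuclei 11 and 4. Within the 4 blocks of 96 nucleus numbers, which may follow the plates but are not labelled as such, the 43 Calb2 nuclei numbered 12, 15, 11 and 5. The 30 genes kept their direction in 117 of 120 comparisons within a block, but they had been chosen on the same nuclei.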

How the data were processed

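The authors deposited 1 table of read counts, not normalised, for 29779 gene symbols in 383 nuclei, and every column matched 1 label. Per the submitters' processing notes the build was GRCm38 and the tools were bcl2fastq, STAR, Picard, edgeR and Seurat 3. Their roles, the gene annotation, whether strand was used and whether intronic reads were counted are not given in the sources used here. Nuclear RNA is rich in unspliced transcripts, so this bears on the values of long genes.

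Nuclei were chosen from the full counts. For shares, each nucleus was thinned to 500000 reads at random without replacement, and a gene counted as found with at least 1 read. Levels were log2(CPM + 1) on all reads. Intervals are exact 95% intervals (Clopper-Pearson for shares, Poisson for sums). They cover only the sampling of nuclei (shares) or of reads (sums), as if these were independent, and no variation between animals. Wells received single sorted nuclei, and doublets were not called.

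The always-named genes included Calb2, Cartpt, Calb1, Chat, Slc5a7, Slc18a3, Tbx20, Nos1, Cck, Cckar, Pdyn, Grp, Npy2r, Gal and Adcyap1. Named with them were the 15 genes by share and 8 by level with the largest difference in each direction past the limits, predicted genes left out, and listed genes past a limit. From the level ranking, mitochondrial and ribosomal protein genes were also left out. The members and lists were chosen with earlier results of these data known. Positions come from GENCODE M21, which matched 28374 symbols. Python 3.11.15, numpy 2.4.6, pandas 2.3.3, scipy 1.17.1 and matplotlib 3.10.9 were used, and the comparison was tested on simulated data. Some genes that the rule names are not reported here.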

Additional observations from a re-analysis of the deposited data

How the results depend on the processing

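Each result was recomputed under 23 alternatives, of which 3 were chosen after seeing the data: leaving out nuclei with over 300 CPM of summed glial and vascular markers, leaving out nuclei with under 9000 genes, and centring levels on their median. No named gene past the share limit changed sign. Among the 45 named genes past the level limit, the difference of Pbx3 changed sign, to 0.0218 whatever the Cartpt reads. Cntn4, Dcc, Gabrg3, Kcnip4 and Tenm3 have no level in CPM without abundant genes, which leaves them out. Small differences that passed no limit, such as that of Cckar, changed sign in some settings. Mc4r (41.7 to 60.1 points), Npy2r (35.2 to 44.0), Pmfbp1 (37.0 to 49.5) and Qrfpr (-47.9 to -30.6) stayed past the share limit in all 23. Among these 23, settings that changed only levels, loosened the limits or admitted more genes could not remove a share call. The list of called genes changed between settings, and in some settings its length also changed. A second random draw called 57 genes higher and 26 lower, of which 32 and 15 were among the reported 58 and 25, and without nucleus numbers 97 to 192 only 22 and 8 of the reported genes were called.

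Genes called lower by share numbered 14 without thinning, 13 thinned to 1000000 reads, 7 with Calb2 nuclei taken from 1 read, 8 whatever the Cartpt reads, 6 with limits of 30 points and 1.5, and 14 without nucleus numbers 1 to 96. Those called higher numbered 17 whatever the Cartpt reads and 17 with limits of 30 points. By level, against 136 higher and 59 lower, counts were 58 and 31 whatever the Cartpt reads, 33 and 14 with log2(CPM + 10), 323 and 112 with limits of 20 points and 0.8, 27 and 12 with limits of 30 points and 1.5, 265 and 96 without nucleus numbers 193 to 288, and 84 and 93 after centring. The lower count alone moved to 35 with at least 3 reads and to 36 with Calb2 from 1 read. Listed genes past either limit, 44 as reported, numbered 27 whatever the Cartpt reads, 27 with log2(CPM + 10) and 22 with the stricter limits. The cause of these shifts was not tested, beyond the stricter or looser limits themselves. No paired analysis was possible because all nuclei form 1 group and their numbers only name them.

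At 500000 reads, a gene with few reads in a nucleus is easily missed, which lowers its share. Variation between animals was not measured.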
